A study of Drosophila melanogaster with 9 samples.

Results

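The genes described here encode 10 main components of the *Drosophila* basement membrane. They are the type IV collagen chains *Col4a1* and *vkg*, the laminin subunits *LanA*, *LanB1* and *LanB2*, and the linker and collagen-binding proteins *trol*, *Ndg*, *SPARC*, *Ppn* and *Mp*. They were picked by gene name as known components of this matrix, and all 10 were found among the 15228 genes of the deposited count table. None was filtered out before the tests, and their lowest count in any sample was 784.

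A basement membrane is a thin sheet of extracellular matrix that underlies epithelia and wraps muscle, gut, fat body and nervous system. Laminin trimers and a network of type IV collagen form its main polymers, and perlecan and nidogen join them. In the fly embryo much of the collagen IV is secreted by migrating hemocytes, the macrophages of the fly, while the fat body is the main source in larvae.

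RNA-seq of polyadenylated RNA was performed on whole stage 16 embryos in order to compare the genes under *pri* and *ken* control in the late embryo. The genotypes compared had 3 samples each, which the study calls independent. They were *priS18.1* mutants, which lack the small Pri peptides, *ken1*/*Df(2R)BSC660* mutants, which carry the *ken1* allele over a deficiency of 2R that deletes *ken* and may remove its neighbours, *ken* being a gene for a BTB transcription factor, and control embryos, labelled WT, whose titles begin with w. A fluorescent balancer chromosome told mutants from other embryos at collection, and each sample pooled many embryos of all tissues. In bulk RNA of this kind, fewer cells of a type and less RNA per cell cannot be told apart.

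Between 21048610 and 28859395 counts were assigned to genes per sample (median 23036142). The 10 genes took 0.832% to 1.101% of these counts in *pri* mutants, 0.884% to 1.07% in *ken* mutants and 0.970% to 1.19% in control embryos. Levels below are the authors' normalized counts, that is, counts divided by the size factor of the sample. As a check of the labels, *ken* stood at 1197, 1184 and 1338 normalized counts in *ken* mutants and at 6957, 7431 and 6432 in control embryos, which gives a log2 fold change (log2 FC) of −2.49 with a standard error (SE) of 0.13 (adjusted p = 2.54e-05 from edgeR). The level of *pri* itself was not analysed here.

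None of the 10 genes passed the test in either mutant. All 9 samples entered a single quasi-likelihood model in edgeR, and a gene was called at a Benjamini-Hochberg adjusted p under 0.05 over all 15228 genes. In *pri* mutants against control embryos, 0 of 10 were called in either direction (0 at an unadjusted p under 0.05, and 0 by DESeq2), whereas 3.68% of all genes were called higher and 3.83% lower. In *ken* mutants against control embryos, 0 of 10 were called (1 lower at an unadjusted p under 0.05, and 0 by DESeq2), beside 2.21% of all genes higher and 2.81% lower. Between *pri* and *ken* mutants, edgeR called 0 of 10 (1 higher in *pri* at an unadjusted p under 0.05) and DESeq2 called *trol* higher in *pri* mutants, beside 4.03% of all genes higher and 4.09% lower by edgeR. Among the 4445 genes with a mean of at least 1000 normalized counts, which is the range of the 10, the shares were 4.18% higher and 4.86% lower for *pri* against control, 1.96% and 2.72% with *ken* in place of *pri*, and 4.50% and 5.69% between the mutants. With 10 genes, a count of 0 lies near such shares. The median log2 FC of the 10 genes was −0.08 in *pri* mutants and −0.09 in *ken* mutants, against 0.02 and 0.01 over all genes.

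Groups that do not overlap were counted beside the shares over all genes, and with 10 genes the counts lie near such shares. In *pri* against control 1 of the 10, *Col4a1*, had every *pri* sample below every control sample, beside 15.6% of all genes (20.5% of the 4445), and 0 had every *pri* sample above, beside 15.5% (16.4%). For *ken* against control 1 was separate and lower, *trol*, beside 12.5% of all genes (13.7%), and 0 were higher, beside 12.3% (13.0%). For *pri* against *ken* 2 were separate and higher, *trol* and *Mp*, beside 13.8% of all genes (15.1%), and 0 were lower, beside 12.7% (15.6%).

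**Figure D1:**
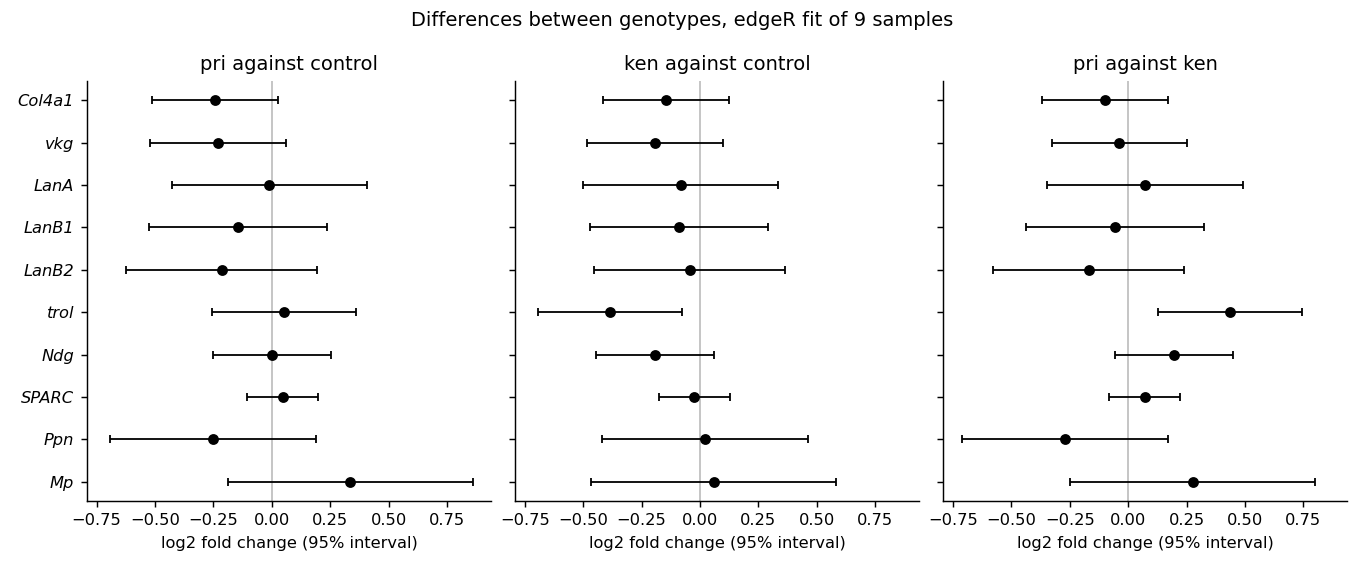
Log2 FCs of the 10 genes (points) with 95% intervals (bars) from the edgeR fit, in the 3 comparisons of genotypes, with one panel each. The intervals cross 0 in 28 of 30 cases. The exceptions are both of *trol*, at −0.39 in *ken* against control and 0.44 in *pri* against *ken*, and neither passed the adjusted test.

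Intervals show how large a change these samples leave possible. *SPARC* had the narrowest, with a log2 FC between −0.11 and 0.20 in *pri* mutants and between −0.18 and 0.13 in *ken* mutants. *Mp* had the widest, between −0.19 and 0.86 in *pri* mutants and between −0.46 and 0.58 in *ken* mutants. For the collagen chains a reduction to 0.700 of the control level in *pri* mutants lies at the lower bound of *Col4a1* and one to 0.697 at that of *vkg*. A moderate decrease of either thus remains possible with 3 samples per genotype.

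The level per length differed far more between the genes than between the genotypes. Normalized counts were divided by the kilobases of exon of each gene. In *pri* mutants *SPARC* led with 9035 ± 319 normalized counts per kb of exon, followed by *Col4a1* with 6745 ± 177 (SD, n = 3), and their ranges over the samples did not overlap. In *ken* mutants they stood at 8614 ± 207 and 7227 ± 709, again without overlap, while in control embryos they were at 8740 ± 352 and 7977 ± 1222 and overlapped. *vkg* came next in each genotype, at 3998 ± 142 in *pri* mutants, 4109.96 ± 328 in *ken* mutants and 4686 ± 879 in control embryos. The laminin subunits, *Ndg* and *Ppn* formed a middle group. In control embryos it ran through *LanA* (3704 ± 420), *LanB1* (3516 ± 499), *Ndg* (3472 ± 237), *LanB2* (3351 ± 555) and *Ppn* (3148 ± 477 normalized counts per kb), any of which overlapped each of the others, and *vkg* overlapped only *LanA* among them. *trol* stood apart at 1556 ± 129 in *pri* mutants, 1150.05 ± 200.3 in *ken* mutants and 1499.8 ± 146 in control embryos, and *Mp* at 207 ± 24.3, 171 ± 20.9 and 164 ± 63.2 in *pri*, *ken* and control samples. Of 15159 genes with a length, *SPARC* ranked 208 and *Ppn* 537 by this level in control embryos, while *trol* ranked 1244 and *Mp* 7216. Per kilobase of coding sequence the order within the middle group changed in control embryos, with *Ndg* in place 4, *LanB2* in place 6 and *LanA* in place 7 of the 10. *trol* has 25 annotated transcripts and *Mp* 16, so that the exon length used here, the union over transcripts, can be longer than the transcripts in the embryo.

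**Figure D2:**
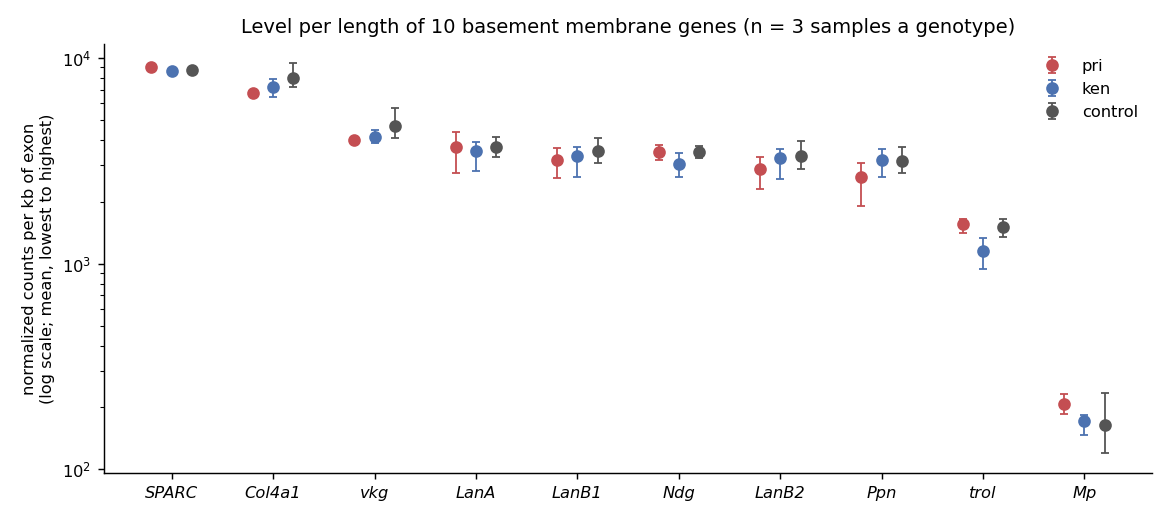
Level per length of the 10 genes in *pri* mutants, *ken* mutants and control embryos, in normalized counts per kb of exon on a log axis. Points are means and bars run from the lowest to the highest of 3 samples. *SPARC* and *Col4a1* lie highest and *Mp* lowest in each genotype, and bars of the genotypes overlap for most genes.

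*vkg* and *Col4a1* encode the α2 and α1 chains of the only type IV collagen of the fly, which assemble into heterotrimers. The genes lie head to head on chromosome arm 2L (dm6), *vkg* (FBgn0016075) at chr2L:5012144-5028191 on the minus strand and *Col4a1* (FBgn0000299) at chr2L:5029609-5037279 on the plus strand, with 1417 bases between their starts. *Col4a1* had 40564, 42733 and 41449 normalized counts in *pri* mutants, 45132, 39929 and 48609 in *ken* mutants, against 57854, 44302 and 45379 in control embryos. All 3 *pri* samples were below all 3 control samples, although the gap to the lowest control sample was small and control sample 1 stood far above the others. For *Col4a1* the log2 FC in *pri* mutants was −0.24 (SE 0.12, adjusted p = 0.277 from edgeR) and became −0.11 without control sample 1. In *ken* mutants its log2 FC was −0.15 (SE 0.12, adjusted p = 0.598), and the groups overlapped.

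*vkg* followed *Col4a1* closely. It had 25015, 26847 and 26143 normalized counts in *pri* mutants, 26057, 25009 and 29116 in *ken* mutants, against 37024, 26529 and 27858 in control embryos. Here too control sample 1 was the highest of all, and the groups overlapped. Its log2 FC was −0.23 in *pri* mutants (SE 0.13, adjusted p = 0.337) and −0.19 in *ken* mutants (SE 0.13, adjusted p = 0.498 from edgeR). Without control sample 1 these values were −0.06 and −0.03 for *pri* and *ken*.

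**Figure D3:**
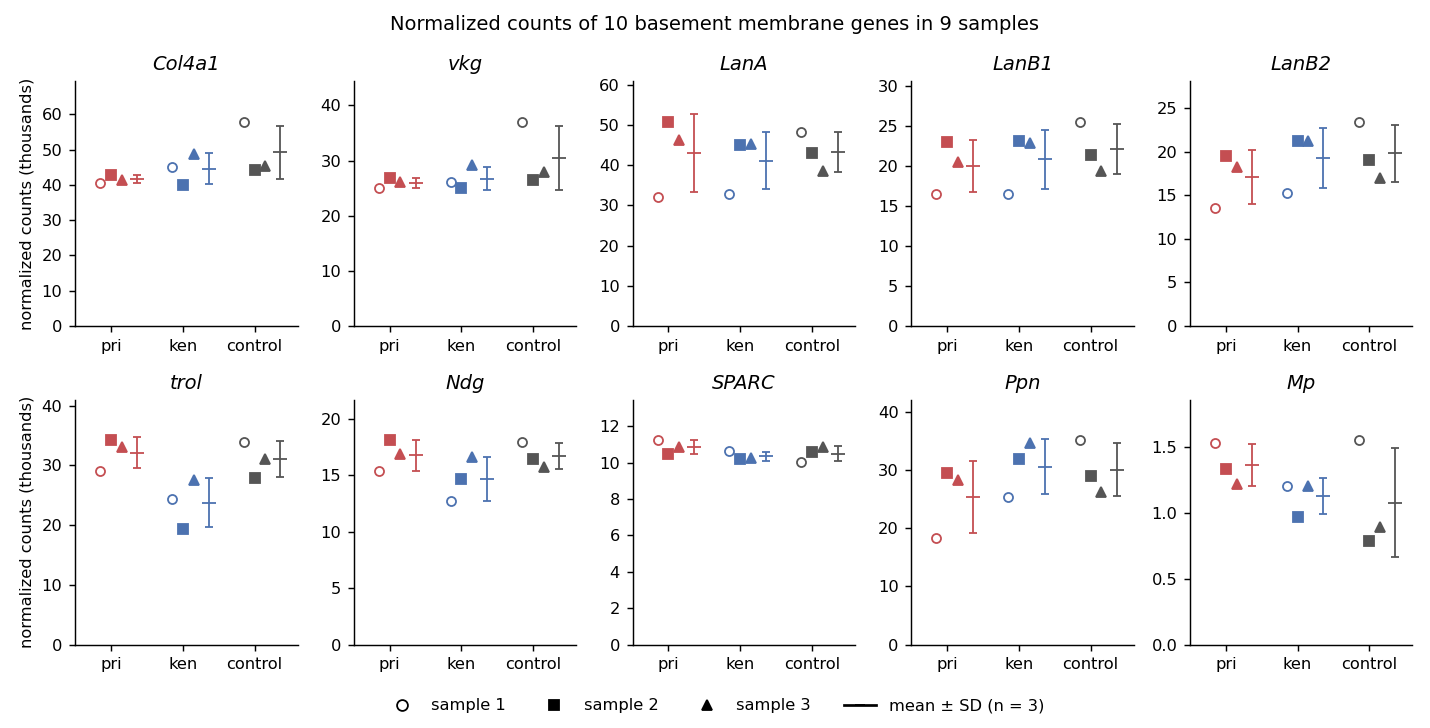
Normalized counts (axis in units of 1000) of the 10 genes in each of the 9 samples, by genotype, with sample 1 as open circles, sample 2 as squares, sample 3 as triangles, and the mean ± SD of 3 samples beside them. Control sample 1 is the highest of the 9 for *Col4a1*, *vkg*, *LanB1*, *LanB2*, *Ppn* and *Mp*, and *pri* sample 1 is the lowest for *LanA*, *LanB1*, *LanB2* and *Ppn*.

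Within each sample the collagen chains kept nearly the same ratio. *vkg* over *Col4a1* was 0.617, 0.628 and 0.631 in *pri* mutants, 0.577, 0.626 and 0.599 in *ken* mutants, against 0.640, 0.599 and 0.614 in control embryos. From lowest to highest the ratio spanned 1.11-fold, the smallest span of the 45 pairs that the 10 genes form (median 1.65-fold). Per kilobase of exon, *Col4a1* exceeded *vkg* by a factor of 1.69 ± 0.0204 in *pri* mutants, 1.76 ± 0.0715 in *ken* mutants and 1.71 ± 0.0571 in control embryos (SD, n = 3 each). Genotypes overlapped in this ratio (exact two-sided permutation p = 0.6 and 0.5 for *pri* and for *ken*, each against control, and 0.2 between the mutants).

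Laminins are trimers of an α, a β and a γ subunit. The fly has a single β gene, *LanB1*, a single γ gene, *LanB2*, and a pair of α genes, of which *LanA* is among the 10 and *wing blister* (*wb*) encodes the other. *LanA* (FBgn0002526) lies at chr3L:6203831-6218022 (minus strand), *LanB1* (FBgn0261800) at chr2L:7811438-7820771 (plus strand) and *LanB2* (FBgn0267348) at chr3L:9614914-9623980 (plus strand). In all 3, the samples of a genotype ranged more widely than the means of the genotypes.

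*LanA* had 32141, 50724 and 46331 normalized counts in *pri* mutants, 32831, 44867 and 45346 in *ken* mutants, against 48325, 43082 and 38502 in control embryos. Sample 1 was the lowest in both mutants and the highest in control embryos. The log2 FC was −0.01 in *pri* mutants (SE 0.19, adjusted p = 0.986) and −0.08 in *ken* mutants (SE 0.19, adjusted p = 0.874 from edgeR). *LanB1* had 16457, 22984 and 20551 normalized counts in *pri* mutants, 16515, 23099 and 22868 in *ken* mutants, against 25521, 21349 and 19388 in control embryos. Its groups overlapped, with log2 FCs of −0.15 in *pri* mutants (adjusted p = 0.650) and −0.09 in *ken* mutants (adjusted p = 0.850). *LanB2* had 13561, 19504 and 18298 normalized counts in *pri* mutants, 15323, 21238 and 21256 in *ken* mutants, against 23439, 19018 and 17025 in control embryos. The order of the samples was nearly that of *LanB1*. For *LanB2* the log2 FC was −0.21 in *pri* mutants (SE 0.18, adjusted p = 0.530) and −0.04 in *ken* mutants (SE 0.18, adjusted p = 0.939 from edgeR). Without *pri* sample 1, the log2 FC of *LanB2* in *pri* mutants was −0.07.

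*wb*, the other α subunit, was the minor one in RNA. Its level per kb of exon was 0.0792 ± 0.00518 of that of *LanA* in *pri* mutants, 0.0805 ± 0.00458 in *ken* mutants and 0.0866 ± 0.00624 in control embryos (SD, n = 3 each). It averaged 4079 ± 1057 normalized counts in *pri* mutants, 3904 ± 500 in *ken* mutants and 4438 ± 184 in control embryos, with log2 FCs of −0.12 (adjusted p = 0.722) and −0.19 (adjusted p = 0.643 from edgeR) for *pri* and *ken*.

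The subunits were close to equal per length. *LanA* stood at 1.15 ± 0.0871 times *LanB1* per kb of exon in *pri* mutants, 1.06 ± 0.0134 times in *ken* mutants and 1.06 ± 0.0347 times in control embryos, and *LanB2* at 0.907 ± 0.0356, 0.983 ± 0.00571 and 0.951 ± 0.0219 times *LanB1* in *pri*, *ken* and control samples (SD, n = 3 each). In normalized counts, *LanB2* over *LanB1* was 0.824, 0.849 and 0.890 in *pri* mutants, 0.928, 0.919 and 0.930 in *ken* mutants, against 0.918, 0.891 and 0.878 in control embryos. The *ken* samples were all above the *pri* and the control samples, although *ken* sample 2 and control sample 1 nearly met. An exact two-sided permutation test gave p = 0.1 for *ken* against control and for *pri* against *ken*, the smallest p that 3 against 3 samples allow, and 0.2 for *pri* against control. Over the 12 tests of the ratios of 4 pairs the adjusted p was 0.45 or above. The span of 1.13-fold was the second smallest of the 45 pairs, and that of *LanA* over *LanB1*, 1.19-fold, the third.

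**Figure D4:**
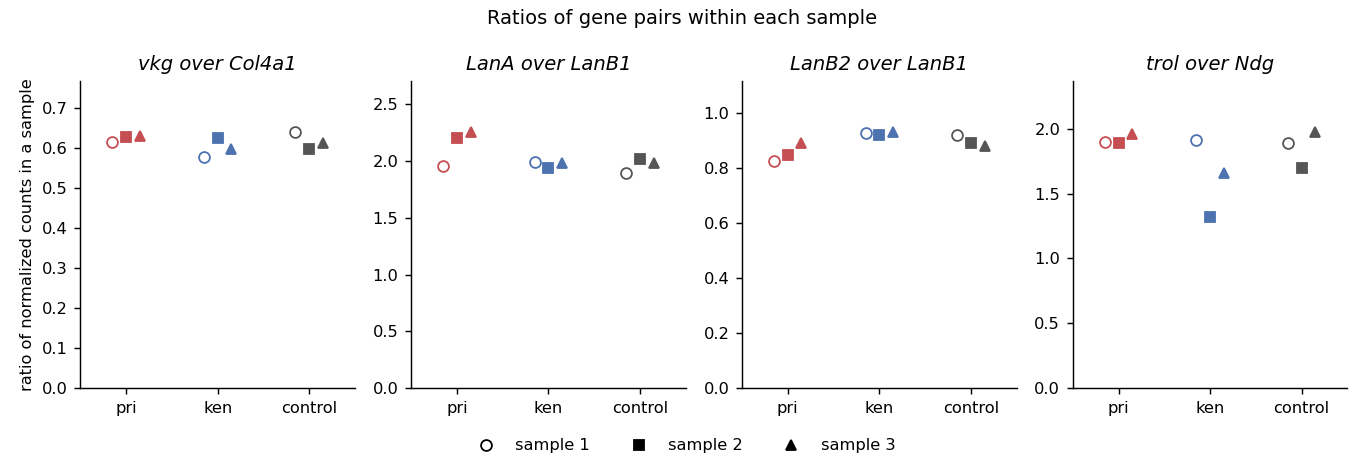
Ratio of normalized counts within each sample for *vkg* over *Col4a1*, *LanA* over *LanB1*, *LanB2* over *LanB1* and *trol* over *Ndg*, by genotype (open circles, squares and triangles are samples 1, 2 and 3, and each axis starts at 0). The first 3 ratios span 1.11-fold, 1.19-fold and 1.13-fold over the 9 samples, whereas *trol* over *Ndg* spans 1.49-fold and is lowest in *ken* sample 2.

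*trol* encodes perlecan, a large heparan sulfate proteoglycan of the basement membrane, and showed the largest difference of the 10 genes in *ken* mutants. It covers chrX:2470460-2545427 (FBgn0284408, minus strand). It had 29155, 34204 and 33125 normalized counts in *pri* mutants, 24334, 19385 and 27609 in *ken* mutants, against 33997, 27978 and 31049 in control embryos. All 3 *ken* samples were below all samples of the other genotypes, but *ken* sample 3 missed the lowest control sample by little. The log2 FC in *ken* mutants against control embryos was −0.39 (SE 0.14, 95% interval −0.69 to −0.08, adjusted p = 0.170 from edgeR). It was −0.25 without *ken* sample 2. In *pri* mutants against control embryos it was 0.05 (SE 0.14, adjusted p = 0.863).

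Between the mutants, *trol* was higher in *pri* by 0.44 on the log2 scale (SE 0.14, 95% interval 0.13 to 0.75, adjusted p = 0.0912 from edgeR). DESeq2 put the adjusted p at 0.0277, and the edgeR fit with the sample number as a block at 0.0509. The difference was 0.28 without *ken* sample 2 and 0.56 without *ken* sample 3. *trol* and *Mp* were the only members whose *pri* and *ken* samples did not overlap, both higher in *pri*. A microRNA gene, *mir-4955*, shares exon sequence with *trol* on the same strand.

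*Ndg* encodes nidogen, which binds laminin and perlecan. It is the only one of the 10 on 2R, the arm of the *ken* deficiency (FBgn0026403, chr2R:10313891-10322104, plus strand). It had 15338, 18086 and 16885 normalized counts in *pri* mutants, 12694, 14667 and 16612 in *ken* mutants, against 17969, 16457 and 15733 in control embryos. The *ken* samples were low in part only, since *ken* sample 3 lay within the control range. For *Ndg* the log2 FC was 0.00 in *pri* mutants (SE 0.11, adjusted p = 0.998) and −0.19 in *ken* mutants (SE 0.11, adjusted p = 0.433 from edgeR). An exon of *CG34222* overlaps *Ndg* on the other strand, and since the strand setting of the counting is not given in the sources used here, reads of the pair may not be separated.

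*trol* over *Ndg* was 1.90, 1.89 and 1.96 in *pri* mutants, 1.92, 1.322 and 1.66 in *ken* mutants, against 1.89, 1.70 and 1.97 in control embryos. The wide range of the *ken* samples rested on *ken* sample 2, since all other samples lay between 1.66 and 1.97. Over the 9 samples the ratio spanned 1.49-fold, more than the collagen and laminin ratios above. By this span the pair was in place 12 of 45, counted from the smallest, and below the median of 1.65-fold. Genotypes overlapped in this ratio (exact two-sided permutation p = 0.8 and 0.3 for *pri* and for *ken*, each against control, and 0.3 between the mutants). With 3 against 3 samples this test cannot give a p below 0.1.

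*SPARC*, a collagen-binding glycoprotein made by hemocytes and fat body, was the steadiest of the 10. It lies at chr3R:26869238-26871995 (FBgn0026562, minus strand), with an exon length of only 1201 bases. It had 11225, 10459.98 and 10869 normalized counts in *pri* mutants, 10631, 10176 and 10230.1 in *ken* mutants, against 10044, 10566 and 10880.5 in control embryos. The highest sample exceeded the lowest 1.12-fold, and the groups overlapped. Its log2 FC was 0.05 in *pri* mutants (SE 0.07, adjusted p = 0.724) and −0.02 in *ken* mutants (SE 0.07, adjusted p = 0.906 from edgeR).

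*Ppn* encodes papilin, a proteoglycan-like glycoprotein related to the ADAMTS family, and varied widely (FBgn0003137, chr3R:28520665-28540324, minus strand). It had 18211, 29453 and 28186 normalized counts in *pri* mutants, 25288, 31837 and 34568 in *ken* mutants, against 35057, 28895 and 26172 in control embryos. *pri* sample 1 was far below every other sample, and the groups overlapped. Its log2 FC in *pri* mutants was −0.25 (SE 0.20, adjusted p = 0.495), which became −0.06 without *pri* sample 1. In *ken* mutants it was 0.02 (SE 0.20, adjusted p = 0.988 from edgeR).

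*Mp* encodes multiplexin, the fly collagen related to vertebrate collagens XV and XVIII, and was the least abundant (FBgn0260660, chr3L:6998843-7053499, plus strand). It had 1534, 1336 and 1218 normalized counts in *pri* mutants, 1202, 968 and 1208 in *ken* mutants, against 1553, 786 and 894 in control embryos. Control sample 1 was the highest of all 9 samples while the other control samples were the lowest. The log2 FC was 0.34 in *pri* mutants (SE 0.23, adjusted p = 0.439) and 0.06 in *ken* mutants (SE 0.23, adjusted p = 0.937 from edgeR). *Mp* was the only one of the 10 whose call against control depended on 1 sample. Without control sample 1 its log2 FC in *pri* mutants was 0.70 and passed (adjusted p = 0.0383 from edgeR), and without control sample 2 it was 0.15. An antisense RNA gene, *asRNA:CR45832*, overlaps exons of *Mp*, so its counts may be shared.

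Spread within a genotype differed between the genes, with a coefficient of variation over 3 samples of 2.40% to 4.03% for *SPARC* but 15.2% to 24.4% for *Ppn*. *Col4a1* varied by 2.62% in *pri* mutants, 9.80% in *ken* mutants and 15.3% in control embryos. From the lowest to the highest of the 9 samples they spanned 1.12-fold (*SPARC*), 1.42-fold (*Ndg*), 1.45-fold (*Col4a1*), 1.48-fold (*vkg*), 1.55-fold (*LanB1*), 1.58-fold (*LanA*), 1.73-fold (*LanB2*), 1.76-fold (*trol*), 1.93-fold (*Ppn*) and 1.98-fold (*Mp*). Of the 10, 9 spanned more than 1.40-fold, the median of the 4445 genes with a mean of at least 1000 normalized counts. In *pri* sample 1, *LanA* was at −0.59, *LanB1* at −0.40, *LanB2* at −0.48 and *Ppn* at −0.66 on the log2 scale relative to the mean of the other *pri* samples, while *Col4a1* was at −0.05, *vkg* at −0.08 and *SPARC* at 0.07. *ken* sample 1 showed the same genes low, with *LanA* at −0.46, *LanB1* at −0.48, *LanB2* at −0.47, *Ppn* at −0.39 and *Ndg* at −0.30, against 0.03 for *Col4a1* and −0.05 for *vkg*. The laminin subunits and *Ppn* were thus low together in these samples and the collagen chains were not.

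In control sample 1 the deviations went the other way and included the collagen chains, with 0.37 for *Col4a1*, 0.45 for *vkg*, 0.24 for *LanA*, 0.33 for *LanB1*, 0.38 for *LanB2*, 0.35 for *Ppn* and 0.89 for *Mp*, but −0.09 for *SPARC*. Over the 9 samples, which share 3 genotypes, the log2 levels of *LanB1* and *LanB2* had a Pearson r of 0.974, those of *LanB2* and *Ppn* 0.960 and those of *Col4a1* and *vkg* 0.964, as a description. *SPARC* ran against them, with r of −0.901 with *LanB2* and −0.904 with *Ppn*, although it moved within a 1.12-fold range.

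**Figure D5:**
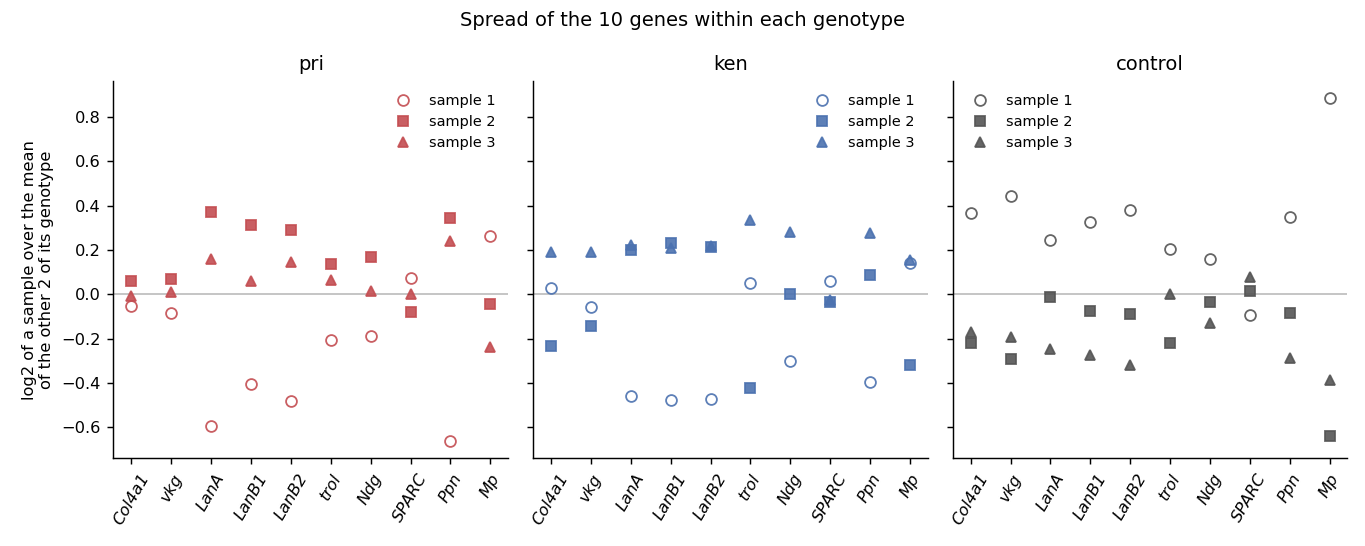
Deviation of each sample from the mean of the other samples of its genotype (log2 scale) for the 10 genes in *pri* mutants, *ken* mutants and control embryos, with open circles, squares and triangles for samples 1, 2 and 3. *pri* sample 1 and *ken* sample 1 lie between −0.39 and −0.66 for *LanA*, *LanB1*, *LanB2* and *Ppn* and near 0 for *Col4a1* and *vkg*, and control sample 1 is above 0 for all but *SPARC*.

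Markers of tissues also differed in the samples that stood apart. In *pri* sample 1 the 9 midgut markers had a median deviation of 2.21 on the log2 scale, the 10 somatic muscle markers 0.47, the 5 tendon markers −0.34, the 9 fat body markers −0.26 and the 14 hemocyte markers −0.02, beside −0.06 for the 4445 genes with a mean of at least 1000. In *ken* sample 1 the medians were 0.36 for midgut, 0.14 for muscle, −0.38 for tendon, −0.33 for fat body and −0.09 for hemocyte markers, beside −0.05 for the 4445 genes. Each marker had the same weight in these medians, also those with few counts. Of the 9 fat body markers, 5 were under 10 normalized counts in every *pri* sample and 4 in every *ken* sample. Muscle markers summed to 785456 normalized counts in *pri* sample 1, against 595171 and 604249 in the other *pri* samples. Midgut markers summed to 15199.8 against 9641 and 9557, a smaller rise than their median deviation. Their part in the levels of the laminin subunits and *Ppn* was not tested. Without *pri* sample 1 and *ken* sample 1, a choice made after seeing the data, none of the 30 comparisons of the 10 genes passed (adjusted p from 0.0867 to 0.997, edgeR).

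Markers of hemocytes, the cells that secrete collagen IV in the embryo, were called in both directions in *pri* mutants, where neither collagen chain was called. Their summed level was 27652 to 32161 normalized counts in *pri* mutants, 19804 to 26519.6 in *ken* mutants and 24414 to 25635 in control embryos. The sum includes genes of crystal cells such as *PPO2*, which made up a large part of it and is described below. Of 14 hemocyte markers, 4 rose and 1 fell in *pri* mutants by edgeR, beside 3.68% of all genes higher and 3.83% lower. In *ken* mutants 0 rose and 1 fell, beside 2.21% and 2.81%. At an unadjusted p under 0.05, 5 were higher and 2 lower in *pri*, and 1 higher and 3 lower in *ken*. The part of these markers in the levels of the collagen chains was not tested. *eater*, a phagocytic receptor of hemocytes, was under 10 normalized counts in every *ken* and every control sample, and *He* in every control sample.

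*NimC1*, a phagocytosis receptor of plasmatocytes, rose to 267 ± 25.8 normalized counts in *pri* mutants and fell to 71.3 ± 5.82 in *ken* mutants, against 131 ± 17.1 in control embryos (log2 FCs 1.02 and −0.88, adjusted p = 0.00486 and 0.0131 from edgeR). *PPO2*, a prophenoloxidase of crystal cells, averaged 9855 ± 712 in *pri* mutants and 6166 ± 79.7 in control embryos (log2 FC 0.68, adjusted p = 0.0253). *lz*, the Runx factor of the crystal cell lineage, stood at 68.9 ± 32.7 in *pri* mutants and 24.2 ± 1.87 in control embryos (log2 FC 1.50, adjusted p = 0.0227). The scavenger receptor gene *Sr-CI* had 334 ± 32.5 in *pri* mutants and 241 ± 7.71 in control embryos (log2 FC 0.47, adjusted p = 0.0477). *NimC4*, a receptor for apoptotic cells, fell to 1335 ± 177 in *pri* mutants, against 2383 ± 76.1 in control embryos (log2 FC −0.84, adjusted p = 0.0200 from edgeR). The calls of *PPO2*, *lz* and *NimC4* in *pri* mutants were lost when any of the control samples was left out (adjusted p from 0.0571 to 0.0986). *PPO2* also lost its call when *pri* sample 2 was left out (adjusted p = 0.0758, edgeR) and when *pri* sample 3 was (adjusted p = 0.0677, edgeR), *NimC4* without *pri* sample 2 (adjusted p = 0.0522) and *lz* in a fit of only *pri* and control samples (adjusted p = 0.0557). The call of *NimC1* in *ken* mutants was lost without control sample 3 (adjusted p = 0.0574). That of *Sr-CI* was lost without any one of the 9 samples (adjusted p from 0.0502 to 0.151).

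Fat body markers summed to 68937 to 94598 normalized counts in *pri* mutants, 57906 to 77949.9 in *ken* mutants and 74926 to 97499 in control embryos, with *Lsp1alpha*, *Lsp1beta*, *Lsp2* and *Fbp2* under 10 in every sample. Of the 9, only the larval serum protein gene *Lsp1gamma* passed, with 96.3 ± 10.98 normalized counts in *pri* mutants, 71.4 ± 11.6 in *ken* mutants and 27.4 ± 7.30 in control embryos (log2 FCs 1.80 and 1.37, adjusted p = 0.00273 and 0.0120 from edgeR). Its call in *ken* mutants was lost without *ken* sample 3, control sample 2 or control sample 3 (adjusted p from 0.05002 to 0.0587). Of the 10 muscle, 6 glial, 6 heart and 5 tendon markers, none was called in either mutant against control by edgeR or by DESeq2, except 1 heart marker lower in *ken* mutants by DESeq2 (with an unadjusted p under 0.05, 1 muscle marker lower and 1 glial and 1 tendon marker higher in *pri*, and 1 heart marker lower in *ken*). Of 9 midgut markers, *Npc2b*, of a family of sterol-binding proteins, rose in *pri* mutants (log2 FC 0.56, adjusted p = 0.00684), and *LManI*, a lysosomal mannosidase gene, fell in *ken* mutants (log2 FC −0.98, adjusted p = 0.00245), by edgeR. In *pri* mutants the log2 FC of *LManI* was −0.47, with an adjusted p of 0.0568 from edgeR and 0.0103 from DESeq2. DESeq2 called 1 midgut marker higher and 1 lower in *pri* mutants, and 1 lower in *ken* mutants. At an unadjusted p under 0.05, 3 midgut markers were higher and 1 lower in *pri*, and 0 higher and 1 lower in *ken*. The log2 FC was above 0 for 8 of the 9 in *pri* mutants (median 0.92) and for 6 in *ken* mutants (median 0.16). Over all genes edgeR called 3.68% higher in *pri* and 2.81% lower in *ken*.

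Genes that act with the 10 were examined from lists made from knowledge of the pathway. Of 10 other matrix genes, *Loxl1* was lower in *pri* mutants, and *Loxl1* and *Loxl2* were lower in *ken* mutants, by edgeR (DESeq2 called 1 lower in *pri* and 3 lower in *ken*). Over all genes edgeR called 3.83% lower in *pri* and 2.81% lower in *ken*. *Loxl1* and *Loxl2* encode the lysyl oxidases of the fly, which crosslink collagen. *Loxl1* averaged 28.0 ± 10.6 normalized counts in *pri* mutants, 21.9 ± 6.41 in *ken* mutants and 83.2 ± 7.59 in control embryos, with log2 FCs of −1.57 (SE 0.31, adjusted p = 0.0169) and −1.92 (SE 0.32, adjusted p = 0.00873 from edgeR). Its call in *pri* mutants was lost without *pri* sample 2, control sample 2 or control sample 3 (adjusted p from 0.0522 to 0.0594). *Loxl2* averaged 26.3 ± 11.01 in *pri* mutants, 11.2 ± 4.93 in *ken* mutants and 41.2 ± 17.7 in control embryos, and its log2 FC of −1.87 in *ken* mutants (adjusted p = 0.0464) was lost without any one of 8 of the 9 samples (adjusted p from 0.0572 to 0.167). Both comparisons share the control samples.

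*Pxn* encodes peroxidasin, a peroxidase that crosslinks collagen IV. It stood at 2757 ± 431 normalized counts in *pri* mutants, 2924 ± 557 in *ken* mutants and 3825 ± 581 in control embryos, with log2 FCs of −0.47 (SE 0.17, adjusted p = 0.142) and −0.39 (SE 0.17, adjusted p = 0.278 from edgeR). Neither passed, and the means of both mutants were below that of control embryos.

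None of 10 measured genes for the folding and secretion of collagen IV (among them the lysyl hydroxylase gene *Plod* and *Tango1*) passed in either mutant, by edgeR or by DESeq2 (with an unadjusted p under 0.05, 1 was lower in *pri* and 0 in *ken*). Their log2 FCs lay between −0.29 and 0.15 in *pri* mutants and between −0.05 and 0.15 in *ken* mutants. Of 6 matrix proteases and inhibitors, among them *Mmp1*, *Mmp2* and *Timp*, none passed by edgeR, while DESeq2 called 0 in *pri* mutants and 1 lower in *ken* mutants (at an unadjusted p under 0.05, 0 in *pri* and 2 lower in *ken*). Of 11 proteins of integrin adhesions, such as the talin gene *rhea*, none passed by edgeR or by DESeq2 (with an unadjusted p under 0.05, 3 were higher in *pri* and 1 was lower in *ken*).

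Among 12 matrix receptors, 1 was called higher in each mutant by edgeR (2 higher in *pri*, and 1 higher and 1 lower in *ken* by DESeq2). Over all genes edgeR called 3.68% higher in *pri* and 2.21% higher in *ken*, and with 12 genes a count of 1 lies near such shares. The discoidin domain receptor gene *Ddr*, whose vertebrate relatives bind collagen, rose to 426 ± 40.9 normalized counts in *pri* mutants, against 273 ± 9.56 in control embryos (log2 FC 0.64, SE 0.12, adjusted p = 0.0127 from edgeR), and the call was lost without control sample 2 (adjusted p = 0.0575). In *ken* mutants it averaged 322 ± 31.9 (log2 FC 0.24, adjusted p = 0.359). The integrin α subunit gene *ItgaPS4* rose to 31.4 ± 2.996 in *ken* mutants, against 13.3 ± 0.942 in control embryos (log2 FC 1.22, SE 0.23, adjusted p = 0.0174), a call lost without *ken* sample 3 or any of the control samples (adjusted p from 0.0580 to 0.0787). It averaged 17.6 ± 2.51 in *pri* mutants (log2 FC 0.39, adjusted p = 0.447).

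Among 9588 genes with a mean of at least 50 normalized counts, the 8 whose levels most resembled the mean of *Col4a1* and *vkg* over the 9 samples were *kst* (Pearson r 0.956), *PolrMT* (0.918), *CG9485* (0.910), *CG7523* (0.907), *Fur1* (0.895), *Nxf3* (0.884), *sima* (0.873) and *CG11893* (0.871), as a description. *kst*, the βHeavy-spectrin gene, had 11224, 12087 and 12213 normalized counts in *pri* mutants, 13255, 11937 and 13896 in *ken* mutants, against 16117, 12425 and 12641 in control embryos. Like the collagen chains, all 8 genes were highest in control sample 1, so their r values rest in part on that sample. The other 8 members were left out of that ranking. *LanB2* had an r of 0.575 with the collagen chains (place 461 of all 9588), *Ppn* 0.560, *LanB1* 0.535, *Ndg* 0.436, *trol* 0.432, *LanA* 0.354, *Mp* 0.331 and *SPARC* −0.575.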

How the data were processed

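Polyadenylated RNA of 9 samples of whole embryos was sequenced, 3 per genotype. Per the study's methods, the authors aligned reads to dm6 and counted them on FlyBase genes with STAR (2.6.1d), leaving out genes with at most 1 read in all. GRCm38 and mm10 in the submitters' notes are mouse builds, whereas the gene IDs are those of *Drosophila*. The deposited table holds raw counts and normalized counts, a signal that the authors made by dividing counts by DESeq2 size factors (they differ from that quotient by at most 5.12e-10 of the value). The strand setting is not given in the sources used here.

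Raw counts were tested with edgeR 4.0.16 in R 4.3.3 (quasi-likelihood F-test, TMM factors, all 15228 genes, 95% intervals from the fit). A standard error is the size of the log2 fold change divided by the root of its F statistic. Ratios within a sample were compared by exact permutation tests. Positions and lengths came from the Ensembl annotation of the same build (15159 genes matched). The members and gene lists were chosen with earlier results of these data known, and the rule for named genes was all members, *wb*, *Pxn*, up to 4 called genes per list with the smallest adjusted p (with *Sr-CI* chosen after its values were seen), and the 8 genes most like the collagen chains. The gene *Strat* was not in the table.

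Deviations of samples with the numbers 1, 2 and 3 correlated at 0.345, 0.467 and 0.175 between *ken* and control. They correlated at 0.552, 0.526 and 0.118 between *pri* and *ken*, and at 0.433, 0.545 and −0.111 between *pri* and control. The values for number 3 were thus low. Samples with different numbers ranged widely, from −0.556 (*pri* sample 1 with control sample 2) to 0.396 (*pri* sample 3 with control sample 2). Values within a pair of genotypes are not independent, since deviations were taken from the mean of each genotype. The labels give no meaning to the number, so the values reported are from fits without it, and the block is an alternative. Alternatives were DESeq2 1.42.0, RLE factors, library totals, filterByExpr, only the genotypes compared, a robust spread, the sample number as a block, coding length, and each sample left out. No sequences are shown, and p-values set a difference between genotypes against the spread between these samples.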

Additional observations from a re-analysis of the deposited data

Results flagged for a closer look

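7 genes of the marker lists differed between *pri* and *ken* mutants in a direct test in the edgeR fit. Of 14 hemocyte markers 3 were higher and 1 lower in *pri*, and 2 of 9 midgut and 1 of 6 heart markers were higher. Over all genes 4.03% were called higher and 4.09% lower. None of the 10 basement membrane genes was called, a count near those shares. *NimC1* was higher in *pri* mutants than in *ken* mutants by 1.90 on the log2 scale (adjusted p = 0.000255), with 267 ± 25.8 normalized counts in *pri* and 71.3 ± 5.82 in *ken* (SD, n = 3 each). *PPO2* was higher by 0.93 (adjusted p = 0.00517, edgeR), with 9855 ± 712 in *pri* and 5188 ± 1239.6 in *ken*. *Sr-CI* was higher by 0.84 (adjusted p = 0.00313, edgeR). *NimC4* had a log2 difference of −0.67 (adjusted p = 0.0474, edgeR), *Npc2b* of 0.40 (adjusted p = 0.0278) and *LManI* of 0.51 (adjusted p = 0.0395). *Ork1*, a potassium channel gene of the heart list named here after its values were seen, differed by 1.14 (adjusted p = 0.0391, edgeR). The calls of *NimC4*, *Npc2b* and *LManI* were each lost in a fit of only the *pri* and *ken* samples (adjusted p = 0.111, 0.0628 and 0.129, edgeR). Most fits that left out a sample lost them too. Under 16 alternatives *NimC4* was called in 6, *Npc2b* in 9 and *LManI* in 7, while *NimC1*, *PPO2* and *Sr-CI* were called in all 16. The alternatives were not examined for *Ork1*. Groups of 3 samples are too small for a test of outlying samples.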

How the results depend on the processing

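Each of the 30 log2 fold changes of the 10 genes was recomputed under 16 alternatives, 480 values in all, and 2 of them passed. The count of genes higher in *pri* mutants than in control embryos was 0 to 1 when each sample was left out in turn, with *Mp* called without control sample 1 (0.70, adjusted p = 0.0383). The count higher in *pri* than in *ken* mutants was 1 by DESeq2 (*trol*, 0.44, adjusted p = 0.0277). The sign changed in 30 values of 12 fold changes, and the largest size of those 12 was 0.09. With the replicate block no member's call changed (adjusted p from 0.0509 to 1, edgeR). For the other genes named, 595 values had the same outcome as the main fit, counting those called in neither. A further 8 passed only under the alternative, and 69 lost a call of the main fit. With 3 samples per genotype, changes of any size within the intervals given remain possible.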
